A study of Rattus norvegicus with 8 samples.

Results

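miR-101a and miR-101b are near-identical microRNAs (miRNAs) made from separate genes, and they were measured here in pancreatic islets of young and adult Sprague Dawley rats. The members are the array features named rno-miR-101a, rno-miR-101b and, for the opposite arms, rno-miR-101a* and rno-miR-101b*, which makes 4 of the 677 rat miRNAs on the array, 10 of its 1644 probes and 80 of its 13540 non-control features. They were chosen by name, but with the log2 differences between the ages on these same arrays already known, so those differences are given as a description and carry no test. The P10 group (n = 4) is islets of 10-day-old rats of unstated sex, and the adult group (n = 4) is islets of 3-month-old males. All are labelled as control rats, and each sample as a biological replicate, with no count of the animals behind it. The question, by the title, is how islet miRNAs differ as beta cells mature.

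A miRNA is a short RNA that guides a silencing complex to messenger RNAs, mostly through its seed, the bases next to its 5′ end. miR-101 is best known as a repressor of EZH2, the histone methyltransferase of Polycomb repressive complex PRC2, which keeps developmental genes silent. In islet beta cells miR-101a is known as a miRNA induced by inflammatory cytokines, and EZH2 itself is known for falling with age in beta cells as they stop dividing.

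The mature sequences are shown first because they set how far the pair can differ. The array names give no arm, so miR-101a and miR-101b were taken as the 3p products and the names with an asterisk as the 5p products, as in the older naming of miRNAs. All 4 products were matched to RefSeq entries of the build GRCr8, with the seed (bases 2 to 8) in capitals below.
miR-101a-3p: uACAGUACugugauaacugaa
miR-101b-3p: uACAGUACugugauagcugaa
miR-101a-5p: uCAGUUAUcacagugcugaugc
miR-101b-5p: uCGGUUAUcaugguaccgaugc
miR-144-3p: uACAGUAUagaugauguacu
Counted from the 5′ end, the 3p products of miR-101a and miR-101b share 20 of 21 bases and differ by A16G, outside the seed. The 5p products are less alike and differ at 5 of 22 bases (A3G, C11U, A12G, G15A and U17C), the first of which lies in the seed. Among 693 rat mature miRNA names in the table, 2 hold the seed ACAGUAC, and these are the members themselves. Only miR-144-3p shares bases 2 to 7 (ACAGUA) with them, and it departs from miR-101a at C8U.

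The hairpins are shown to place each product in its own precursor, with the 3p mature sequence in capitals.
Mir101a hairpin: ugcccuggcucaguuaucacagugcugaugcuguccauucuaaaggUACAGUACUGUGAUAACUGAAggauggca
Mir101-2 hairpin: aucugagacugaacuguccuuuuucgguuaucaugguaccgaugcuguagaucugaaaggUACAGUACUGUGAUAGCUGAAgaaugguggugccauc
In GRCr8, Mir101a, the gene of miR-101a, lies at chr5:121081683-121081757 on the minus strand and overlaps the long non-coding RNA gene LOC120102934. Mir101-2, the gene of miR-101b, lies at chr1:236273922-236274018 on the plus strand and overlaps Rcl1, which codes for a protein of ribosomal RNA processing. The array's own design is annotated on another build (rn4), and no coordinates were taken from it.

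The arrays differed in overall brightness. P10 replicates 1 and 2 were the dimmest, with a 75th percentile signal (over those probes that every array measured well above background) of 388 and 440, against 989 and 1690 for P10 replicates 3 and 4 and 1284 to 1677 for the adult arrays. Every value below is a log2 signal after division by that percentile of its own array, so that 0 is the percentile itself. The 8 arrays lay on 1 slide, where each age filled its own column, so column and age cannot be told apart. Of 7 listed islet endocrine miRNAs, 5 were well above background on 8 of 8 arrays (miR-375, miR-7a, miR-7b, miR-153 and miR-204). miR-184 was above background on fewer than 4 arrays, and miR-9 was on none.

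Both 3p products were measured far above background, and neither 5p product was. miR-101a and miR-101b each had 2 probes of 10 features, and 320 of 320 feature readings over the 8 arrays were well above background. The probes of miR-101a* (4) and miR-101b* (2) gave 0 of 320 readings well above background, with mean signals between -11.1 and 0.329 after background subtraction. The opposite arms were therefore not detectable here, and whether they differ between ages could not be measured. Replicate features of a 3p probe within 1 array had a coefficient of variation of 2.28% to 13.4% (median 6.26%), and 6 of the 320 readings were left out as outliers.

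**Figure D1:**
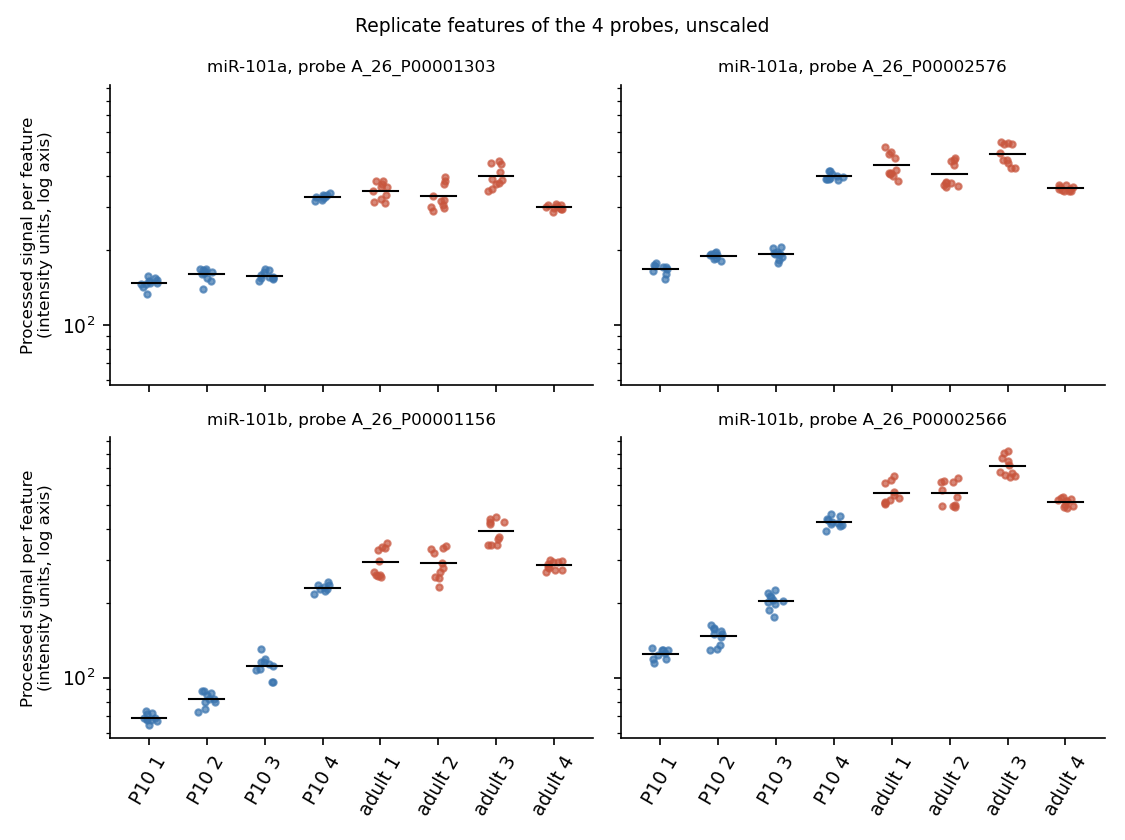
Processed signal (intensity units, log axis) of each replicate feature of the 4 probes of miR-101a and miR-101b on each of the 8 arrays, before scaling between arrays. Points are features, bars are their means, P10 is blue and adult is red. Both probes of a miRNA followed the same course over the arrays.

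In unscaled signal, the brighter probe of miR-101a (A_26_P00002576) averaged 168, 190, 193 and 397 in P10 (replicates 1 to 4) and 441, 405, 489 and 356 in adult. The brighter probe of miR-101b (A_26_P00002566) averaged 125, 148, 205 and 426 on the same P10 arrays and 558, 558, 719 and 510 on the adult arrays. P10 replicates 1 and 3 thus differed little in miR-101a (168 and 193), more in miR-101b (125 and 205) and most in the percentile of the array (388 and 989).

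After scaling, miR-101a had no clear difference between the ages. Its P10 values were -1.205, -1.212, -2.357 and -2.09 (replicates 1 to 4) and its adult values -1.62, -1.79, -1.78 and -1.85. The P10 arrays fell into a high pair (replicates 1 and 2) and a low pair (replicates 3 and 4), and all 4 adult arrays lay between the pairs, so the ages overlapped. The mean was -1.72 ± 0.60 (SD, n = 4) in P10 and -1.76 ± 0.10 in adult, a log2 difference of -0.045 ± 0.28 (SE of the limma fit over all 238 tested miRNAs). Its size ranked 223 of 238.

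miR-101b was higher in adult on every array. Its P10 values were -1.64, -1.57, -2.27 and -1.99 (replicates 1 to 4) and its adult values -1.28, -1.33, -1.22 and -1.33. The lowest adult array was above the highest P10 array, so the ages did not overlap, and the same P10 pairs appeared with a smaller distance between them. The mean was -1.87 ± 0.33 (SD, n = 4) in P10 and -1.29 ± 0.05 in adult, a difference of 0.58 ± 0.17 (SE), or 1.49-fold. Over all tested miRNAs 45.8% did not overlap between the ages, 25.6% being higher and 20.2% lower in adult, and 47.5% were called different, 27.3% higher and 20.2% lower (limma, Benjamini-Hochberg adjusted p under 0.05). A difference of this kind was thus common on these arrays, and it ranked 110 of 238 by size.

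**Figure D2:**
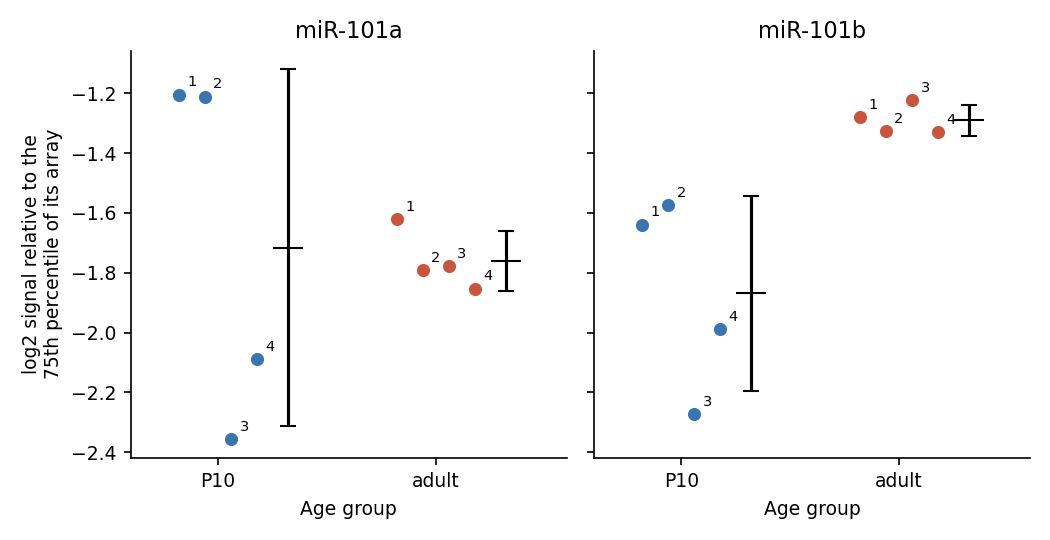
Log2 signal of miR-101a (left) and miR-101b (right) relative to the 75th percentile of each array, by age group. Points are arrays with their replicate numbers, and the bars are the mean ± SD (n = 4). The adult values of miR-101a lie between the 2 pairs of P10 arrays, and those of miR-101b lie above all P10 arrays.

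The paralogues changed unequally. The log2 ratio of miR-101a to miR-101b, in which the scaling of an array cancels, was 0.43, 0.36, -0.084 and -0.10 in P10 (replicates 1 to 4) and -0.34, -0.46, -0.56 and -0.52 in adult. All 4 adult arrays lay below all 4 P10 arrays, and P10 replicates 3 and 4 lay between replicates 1 and 2 and the adult arrays. How many ratios of other miRNA pairs also did not overlap was not counted. Of single tested miRNAs 45.8% did not overlap. The mean ratio went from 0.15 ± 0.29 (SD, n = 4) in P10 to -0.47 ± 0.10 in adult, a difference of -0.62 ± 0.15 (SE from the SDs of both ages), or 1.54-fold. Only changes of this ratio can be read, since 2 probes can bind with different strength and the ratio's zero has no meaning. How far each probe also binds the other paralogue was not tested.

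Each pairing of probes gave the same course. The 2 probes of miR-101a differed between the ages by -0.045 and -0.090, and the 2 probes of miR-101b by 0.58 and 0.55. The 4 pairings of a miR-101a probe with a miR-101b probe gave ratio differences of -0.59 to -0.67, and in 4 of 4 the ages did not overlap. The ratio between the 2 probes of 1 miRNA moved by only -0.046 for miR-101a and -0.033 for miR-101b. The 2 probes of a miRNA read the same RNA on the same arrays, so these small values show the noise of the probes and not the spread between samples.

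**Figure D3:**
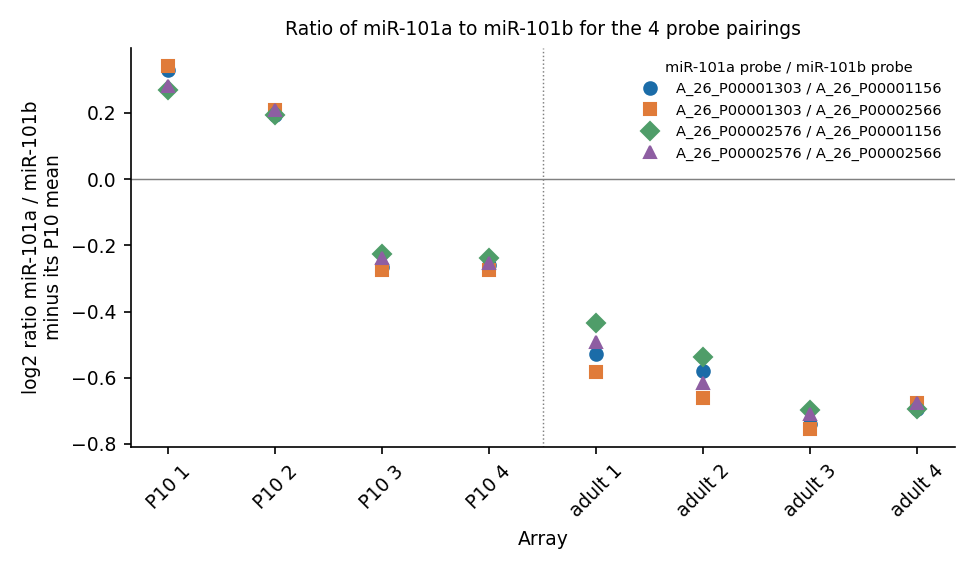
Log2 ratio of miR-101a to miR-101b on each array for the 4 probe pairings, minus the pairing's own P10 mean. Each symbol is 1 pairing, and the dotted line separates the ages. The adult arrays lie below every P10 array in 4 of 4 pairings.

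Each slide row held 1 P10 and 1 adult array, which gives 4 comparisons within rows. For miR-101a the adult array was lower in the rows of P10 replicates 1 and 2 (differences of -0.65 and -0.57) and higher in those of replicates 3 and 4, by 0.57 and 0.47. For miR-101b the adult array was higher in 4 of 4 rows, by 0.31, 0.35, 0.94 and 0.71. The ratio differed by -0.96, -0.92, -0.38 and -0.24, downward in 4 of 4 rows. These directions follow from the values above for any matching of the arrays, since miR-101b and the ratio did not overlap between the ages, so only the sizes are added here.

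Markers of other cells separated the P10 arrays as well. The summed level of 2 acinar markers (miR-216a and miR-217) was -0.35 and -0.66 on P10 replicates 1 and 2. It was -4.09 and -4.50 on replicates 3 and 4, and -2.36 to -1.33 in adult. The value of -4.50 is a floor, since both markers were at the floor of the scale there, as miR-217 was on replicate 3. The third listed marker, miR-216b, is on the array as miR-216b-5p and was left out of the sum. Its values were -2.49 and -2.57 on P10 replicates 1 and 2, the floor on replicates 3 and 4, and -4.81 to -3.999 in adult. Its difference between the ages was -0.47, against 0.61 for miR-216a and 0.51 for miR-217. As for miR-101a, the adult arrays lay between the 2 pairs of P10 arrays. The endothelial pair (miR-126 and miR-126*) did so in the opposite direction, at 1.229 and 1.503 on P10 replicates 1 and 2, 2.15 and 2.23 on replicates 3 and 4, and 1.54 to 1.73 in adult. The islet endocrine list (7 of 7 on the array, miR-9 never above background) summed to 3.57 and 4.19 on P10 replicates 1 and 2, 4.68 and 4.70 on replicates 3 and 4, and 5.46 to 5.65 in adult. The gut epithelium list (miR-192, miR-194 and miR-215) split the P10 arrays in another way, with 2.86 and 3.75 on replicates 1 and 3 and 0.14 and 1.25 on replicates 2 and 4, and was at -1.83 to -0.98 in adult, with miR-215 above background on no adult array. Summed leukocyte markers (5 of 6 on the array) reached -0.005 to 2.03 in P10 and 0.68 to 0.99 in adult, mesenchymal markers (7 of 7) 2.25 to 3.04 and 2.68 to 3.12, and erythroid markers (2 of 3) -2.77 to -1.98 and -2.001 to -0.62. By limma 5 of 5 tested islet endocrine markers, 3 of 7 mesenchymal markers and the erythroid miR-451 rose in adult, and miR-192, miR-194 and 3 of 7 mesenchymal markers fell, where 27.3% of all tested miRNAs were higher and 20.2% lower. The acinar (2), endothelial (2) and leukocyte (5) markers did not pass, and neither did miR-216b-5p or the mesenchymal miR-145. The called miR-144 and miR-215 are not counted because they met the filter through 1 age alone. miR-216a, miR-217, miR-145 and miR-142-5p also met it through the adult arrays alone. They were not called and stay in the numbers of markers given. With quantile normalization and in the authors' deposited table, the islet endocrine markers that rose were 2 of 5. Over all 238 tested miRNAs 56 and 59 were higher there. With P10 replicates 3 and 4 alone 4 of the 5 islet endocrine markers rose and both endothelial markers fell. Of the 238, 73 were higher and 52 lower with those arrays. On those P10 arrays the acinar miR-216a and miR-217 were at or near the floor, and both were higher in adult. The part of cell make-up and of array brightness in the values of miR-101a and miR-101b was not tested, and in bulk RNA fewer cells of a type and less RNA per cell cannot be told apart. Without P10 replicates 1 and 2 miR-101a was higher in adult by 0.46 and miR-101b by 0.84, both without overlap, and the ratio difference was -0.38. Groups fail to overlap more easily with 2 P10 arrays than with 4. The share of all tested miRNAs without overlap was not counted for this choice of arrays.

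The direction given for miR-101a rested on the scaling of the arrays. The difference was 0.42 with the percentile over all probes, 0.91 without scaling, 0.99 with spike-in scaling and 0.096 with quantile normalization. These scalings moved the median difference of all tested miRNAs from -0.014 to 0.45, 0.94, 1.01 and 0.15, so that miR-101a stayed within 0.1 of that median in each. Over 29 alternatives miR-101a ranged from -0.43 (with array weights) to 0.99. Of those alternatives 23 changed the value of miR-101b, which ranged from 0.36 to 1.61, and 20 changed that of the ratio, which ranged from -1.45 to -0.38. The others left these values as they were, since an array's scale cancels in the ratio and filters or blocks do not touch it, and leaving out arrays cannot turn a difference between groups that do not overlap. With cyclic loess over all probes the ages overlapped for both miR-101b and the ratio. In the authors' deposited table, which holds log2 values for 311 miRNAs and neither opposite arm, miR-101a stood at 8.63 ± 0.54 (SD, n = 4) in P10 and 8.63 ± 0.09 in adult, and miR-101b at 8.16 ± 0.28 and 8.86 ± 0.05.

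**Figure D4:**
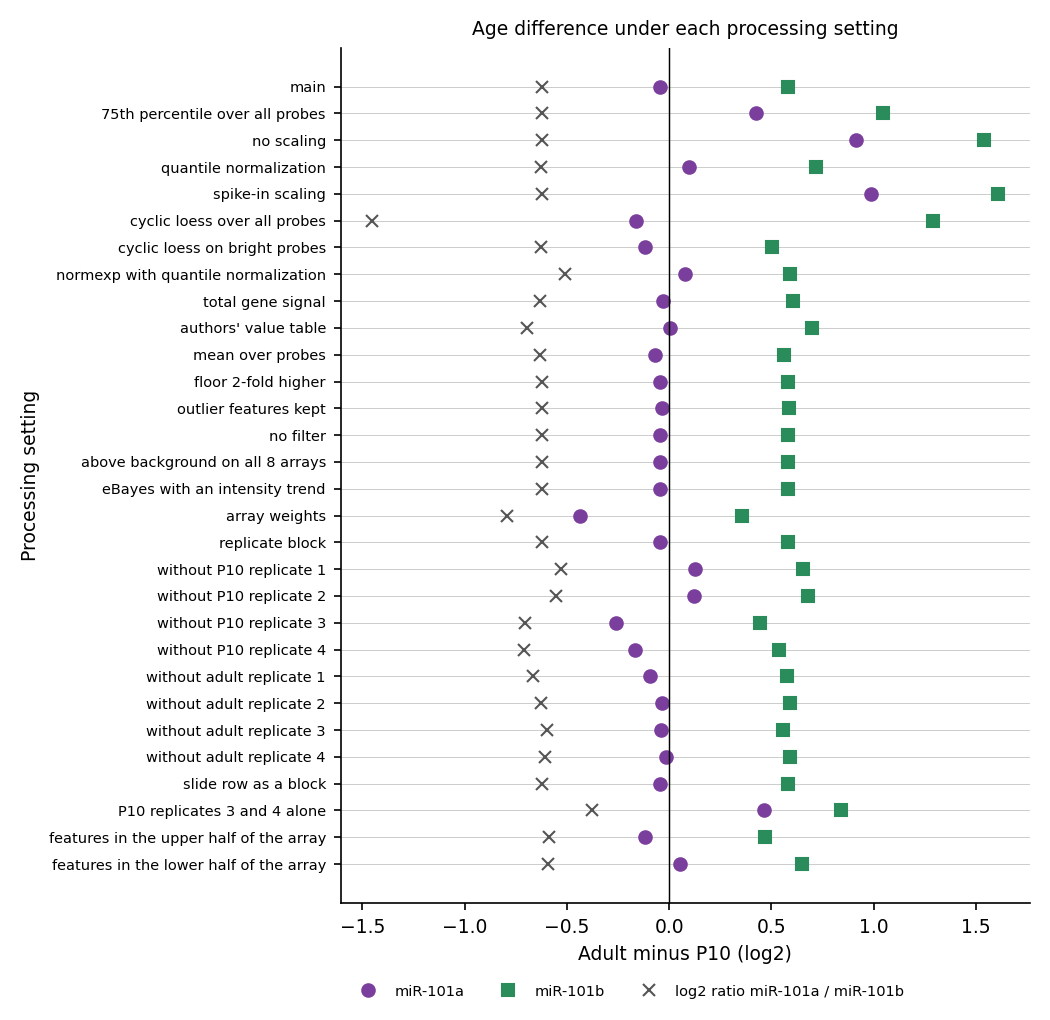
Adult minus P10 difference (log2) of miR-101a (circles), miR-101b (squares) and their ratio (crosses) under the main setting and each of 29 alternatives. miR-101a lies on both sides of 0, miR-101b above 0 and the ratio below 0; some alternatives cannot change the ratio, since an array's scale cancels in it.

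Other near-identical miRNAs give a scale for the gap. Among the tested miRNAs matched to RefSeq by name (178 of 238), 29 pairs differed by 1 or 2 bases in at least 1 arm. The gap between the 2 differences had a median of 0.29 and reached 2.06, and the pair miR-101a and miR-101b (0.62) ranked 12 of 29, or 5 of the 14 pairs that differ by 1 base. Closest together were let-7c and let-7f (0.38 and 0.38), miR-20a and miR-20b-5p (-2.14 and -2.16), let-7a and let-7b (0.15 and 0.17), miR-29a and miR-29c (2.66 and 2.68), let-7a and let-7d (0.15 and 0.20), and miR-19a and miR-19b (-2.01 and -2.08). The widest gaps were those of miR-130a and miR-130b (-0.82 and -2.88), miR-16 and miR-195 (-0.33 and 1.36), let-7a and miR-98 (0.15 and 1.02), let-7a and let-7e (0.15 and 1.01), miR-7a and miR-7b (1.85 and 1.09), and miR-376b-5p and miR-376c (0.89 and 0.13). Many of these pairs share a member, so they are not independent, and 11 of the 29 had a larger gap than miR-101a and miR-101b. With quantile normalization 9 pairs did, and among the 14 that differ by 1 base the number was 2, against 4 here. In 4 pairs, that of miR-376b-5p among them, only 1 name states an arm, so opposite arms may be compared. Without these, miR-101a and miR-101b ranked 10 of 25, or 4 of the 13 that differ by 1 base.

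**Figure D5:**
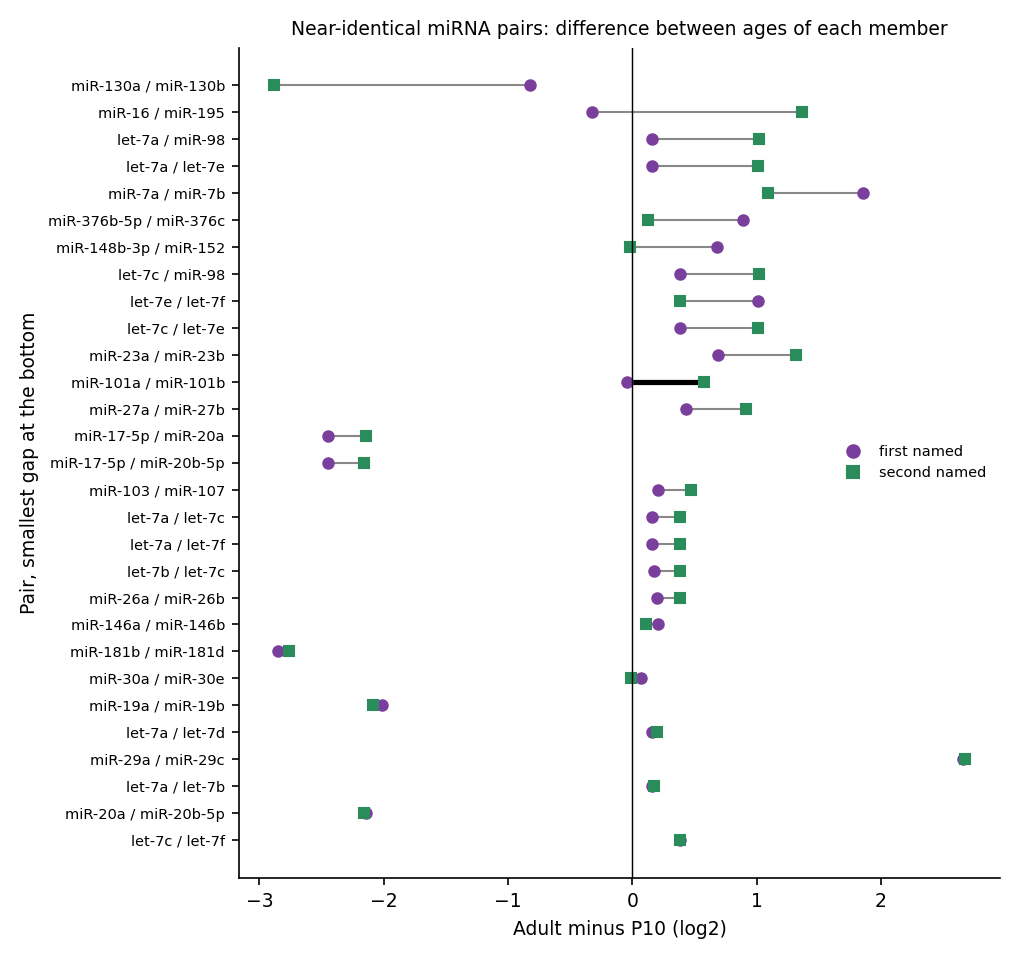
Adult minus P10 difference (log2) of both members of 29 near-identical pairs, ordered by the gap between them. Circles are the first-named and squares the second-named miRNA, and the thick line marks miR-101a and miR-101b, whose gap of 0.62 ranks 12 of 29.

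The pattern of miR-101a over the arrays was not closest to that of miR-101b. Likeness was measured as the root mean square difference over the 8 arrays of log2 values centred on each miRNA's own mean. The nearest to miR-101a were miR-30a (0.12), miR-152 (0.14), miR-125b-5p (0.15), miR-30a* (0.19) and miR-30c-2* (0.20). Their differences between ages were 0.072, -0.019, -0.24, -0.14 and -0.24. Of these, miR-30c-2* was above background on 3 of 4 P10 arrays and at the floor on P10 replicate 4. The nearest to miR-101b were miR-154 (0.15), miR-141 (0.17), miR-200c (0.19), miR-186 (0.19) and miR-22* (0.21), with differences of 0.49, 0.47, 0.87, 0.51 and 0.61, although miR-22* was above background on no P10 array. The distance between the paralogues was 0.36, and miR-101b ranked 42 of 237 for miR-101a. In the authors' deposited table miR-30a and miR-152 again ranked 1 and 3 for miR-101a, and miR-154 and miR-200c ranked 2 and 1 for miR-101b, but miR-125b-5p (33), miR-141 (73) and miR-22* (163) were much farther away.

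miR-144, an erythroid miRNA and the only other in the table that shares bases 2 to 7, was close to the floor of the scale. Its P10 values were -5.50, -5.40, -5.50 and -5.43 (replicates 1 to 4) and its adult values -4.08, -4.41, -4.20 and -5.50, where -5.50 is the floor, and 2 of 4 P10 arrays had it above background. Of the adult arrays 3 of 4 lay above all P10 arrays, and the difference was 0.91. No test is given for it, because it met the filter through the adult arrays alone and its size rests on signal near background.

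Of 12 tested miRNAs, besides miR-101, that are known to act on EZH2, 4 rose and 1 fell in adult (limma), where 27.3% of all tested miRNAs were higher and 20.2% lower. miR-98 rose by 1.02 ± 0.14 (SE), let-7e by 1.01 ± 0.19, let-7f by 0.38 ± 0.11 and miR-26b by 0.38 ± 0.10, and miR-214 fell by 1.64 on the log2 scale, at -1.64 ± 0.17. miR-26a (0.20), let-7a (0.15), let-7b (0.17), let-7c (0.38), let-7d (0.20), let-7i (-0.036) and miR-217 (0.51) did not pass, and miR-138 and miR-124 were above background on no array. The median of the list was 0.29, against -0.014 for all tested. The let-7 miRNAs and miR-98 are 1 family, so the 12 are not independent. The split of 4 higher and 1 lower turned with the scaling. It was 1 and 5 with quantile normalization, where 56 of all 238 tested miRNAs were higher and 46 lower. In the authors' deposited table it was 1 and 6, where 59 of all tested were higher and 43 lower. Without P10 replicates 1 and 2 it was 8 and 1, where 73 of all tested were higher and 52 lower. miR-217 was at the floor on both P10 arrays left. miR-214 and miR-217 are also in the mesenchymal and acinar lists.

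Among miRNAs known to respond to cytokines in islets, 4 of 8 tested rose (limma), where 27.3% of all tested miRNAs were higher. These were miR-29b (3.59 ± 0.24 SE), miR-29c (2.68 ± 0.17), miR-29a (2.66 ± 0.13) and miR-30b-5p (0.62 ± 0.12), the first 3 of which are 1 family. miR-146a (0.21), miR-146b (0.11), miR-34a (-0.048) and miR-21 (-0.35) did not pass. The list's median was 0.41, and the difference of miR-101a (-0.045) lay among the members that did not pass. With quantile normalization and in the table that the authors deposited, 4 miRNAs of the list were higher and 1 lower. Of all 238 tested miRNAs, 56 were higher and 46 lower with quantile normalization, and 59 and 43 in that table.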

How the data were processed

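Islet RNA of 4 P10 and 4 adult samples was labelled with cyanine 3 for 1-colour Agilent arrays, per the labels' protocols. The deposited files give intensity after the scanner software's background subtraction (Feature Extraction 10.7.3.1, named in the file headers). The log2 table deposited by the authors has 1 value per miRNA and array; neither labels nor headers say how it was made. Its columns share 1 set of sorted values (tolerance 0.00787, median 6.54), as quantile normalization leaves them. They are ordered as the scanner's total gene signal (Spearman correlation 1), so the table's direction is settled. Whether the values were averaged further is unknown. That table and the quantile normalization done here are therefore not independent of each other.

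Here, outlier features were left out (2.34% to 3.65% per array, 0 saturated) and each probe's other features averaged. Signals were divided by the array's 75th percentile over the probes that all 8 arrays measured above background. Lower values were then set to -5.505 on the log2 scale (the 1st percentile of probes above background, taken per array, at its median over arrays). The brightest probe stood for its miRNA, and 238 miRNAs had that probe above background on 4 or more arrays. These entered the fit of adult against P10 without a block (limma 3.58.1, R 4.3.3). The fit was tried on 20 sets of simulated data, with independent arrays and 1 SD per miRNA for both ages. Such sets do not cover the unequal SDs seen here (for miR-101a, 0.60 in P10 and 0.10 in adult). The number of arrays limits the precision, and p-values measure only the spread between these samples, which may be technical.

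Members, lists and alternatives were chosen with earlier results of these data known. Named miRNAs were all members, the 5 nearest to each, the near-identical pairs with the 6 smallest and 6 largest gaps, those sharing bases 2 to 7, and list members. Alternatives added after seeing the data were slide row as a block, P10 replicates 3 and 4 alone, probe pairings, features of the upper or lower part of the array, pairs of names with a stated arm, and ranks in the authors' table. The planned normexp correction used median signals. No arrays held identical values (highest correlation 0.9972).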

Additional observations from a re-analysis of the deposited data

How the results depend on the processing

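Leaving out each array in turn gave -0.258 to 0.126 for miR-101a (above 0 without P10 replicate 1, at 0.126, or 2, at 0.123), 0.444 to 0.677 for miR-101b, -0.708 to -0.529 for their ratio, and 84 to 138 calls over all miRNAs, against 113. miR-101a turned from -0.045 to 0.424 with the percentile over all probes, 0.915 without scaling, 0.096 with quantile normalization, 0.987 with spike-in scaling, 0.08 with normexp, 0.006 in the authors' value table, 0.463 with P10 replicates 3 and 4 alone and 0.054 with features of the lower part of the array. The other way it was lowest with array weights, at -0.434 ± 0.149 (SE), so its direction is not settled. miR-101b moved to 1.048 with the percentile over all probes, 1.538 without scaling, 1.61 with spike-in scaling, 1.291 with cyclic loess over every probe and 0.841 with P10 replicates 3 and 4 alone. With that loess the ratio moved to -1.453, and to -0.378 with P10 replicates 3 and 4 alone; the cause was not tested. Without scaling, the probes of miR-101a were at 0.869 and 0.915. The count of calls moved to 62 with spike-in scaling, 20 with the same loess and 179 with array weights. That of the EZH2 list moved to 9 of 12 with P10 replicates 3 and 4 alone, where 125 of all 238 tested miRNAs were called. The split of calls into higher and lower was 65 to 48 here, 90 to 34 with the percentile over all probes, 53 to 9 with spike-in scaling, 61 to 17 with unscaled values, 88 to 91 with array weights and 8 to 12 with the loess over every probe. With the replicate number as a replicate block the differences were the same (-0.045, 0.579 and -0.623) and 95 miRNAs were called. The deviations of same-numbered arrays from their age means correlated at 0.177, -0.09, 0.475 and -0.23 (replicates 1 to 4). Without a reference from arrays of different numbers, these values cannot show whether the numbers mark a pairing.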

Other observations

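The replicate features of the miR-101 probes depended on their place on some arrays. The 8 features in the last 25% of the array rows were brighter than the 12 in the first 25%, each relative to its probe's mean, by a factor of 1.11, 1.19 and 1.2 on adult replicates 1, 2 and 3. The factor was 1.01 on adult replicate 4 and 0.954 to 1.02 on the P10 arrays. Between ages the ratio differed by -0.587 with features of the upper part of the array alone and -0.594 with those of the lower. In the same order, miR-101b differed by 0.47 and 0.648, and miR-101a by -0.117 and 0.054.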
